A study of Raphidocelis subcapitata with 72 samples.

Results

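The most abundant transcripts of the freshwater green alga Raphidocelis subcapitata were described across a nanoparticle exposure series. The members were selected on their level alone: every gene counted whose level reached at least 1000 CPM, the count scaled to a common library size, as the mean of the 6 group means. The rule found 167 members among 12181 genes of the count table, which is 1.37% of the genes. All 167 passed the low-count filter that left 11841 genes for testing, and the lowest count of any member in any library was 16378. Because the rule used the level, the levels and the share of counts below are a description with no test, while the differences between groups were not part of the rule.

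In green algae, a few nuclear gene families are known to supply a large share of the messenger RNA, above all the light-harvesting antenna proteins, the small subunit of Rubisco and the cytosolic ribosomal proteins. Antenna transcripts are known to move with light and with stress, while ribosomal protein transcripts tend to be held at steadier levels. Poly(A) selection leaves most chloroplast and mitochondrial messages out, so an abundance ranking from such libraries covers mainly nuclear genes. The files hold RSUB locus identifiers without names or products, and no annotation or sequence was used here. None of these roles can therefore be given to a member, and members are named by locus.

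All cultures were strain ATCC 22662, grown to mid-log phase in Sueoka's high salt medium under constant white light with CO2-enriched air. They then received 100 mg/L of nano zero-valent iron (nZVI), 100 mg/L of nano magnetite (nFe3O4) or no particles (neg), and were sampled at 1 h and at 4 h. The labels give 3 biological replicates for each of the 6 groups and 4 sub-samples for each replicate, read here as sequencing lanes and summed. The study asked which genes respond to the particles at each hour. Whether replicates came from separate inocula is not stated, so the p-values cover the library-to-library spread only, which could be technical.

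Some features of the deposited data bear on every result below. For nFe3O4 at 1 h, all 4 lane columns headed replicate 2 hold the same values as 1 column of replicate 1, so they were dropped, which leaves 17 libraries and 2 in that group. Library totals ran from 26322767 to 43364641 counts. The count table holds no locus numbered below 360, while the authors' comparison tables list 273 such loci. By the authors' values, the highest of these has only 3 listed members above it. Shares and ranks below therefore hold only among the loci of the count table. The headings of the neg and nZVI columns go against another of the authors' tables: over 49 genes of their transformed table, all 12 libraries headed neg or nZVI correlated best with the column of the other name at the same hour and replicate (r of 0.944 to 0.991), while the 5 nFe3O4 libraries matched their own name. No member is among those 49 genes. The groups are therefore called neg-headed and nZVI-headed, as in the count table. Under the other naming, differences between these 2 groups change sign, and the comparison of nFe3O4 with the nZVI-headed libraries becomes the one against the particle-free culture. That of nFe3O4 with the neg-headed libraries then becomes a comparison of 2 particles. In bulk samples, fewer cells of a kind and less RNA per cell cannot be told apart.

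The members took 63.4% ± 1.89 (SD, n = 17 libraries) of all counts in the count table, with a range of 60.2% to 66.7%. Between 64 and 92 genes were enough to hold 50% of the counts of a library. By group the members' share was 63.0% ± 0.948 (SD, n = 3) in the neg-headed libraries at 1 h, 61.6% ± 1.28 (SD, n = 2) with nFe3O4 and 60.8% ± 0.601 (SD, n = 3) in the nZVI-headed ones. At 4 h it was 65.9% ± 0.702, 64.1% ± 1.13 and 64.2% ± 0.516 in the same order (SD, n = 3 each). The neg-headed libraries had the highest shares at each hour. At 1 h they overlapped those with nFe3O4 but not the nZVI-headed ones, and at 4 h they overlapped neither.

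Most of this movement lay in the first few members. The 10 members with the most counts held 19.5% to 26.0% of a library, while the other members together held 39.5% to 41.6%. The first 4 members alone held 12.2% ± 0.0705 of the counts in the neg-headed libraries at 1 h (SD, n = 3), 9.12% ± 0.616 with nFe3O4 (SD, n = 2) and 8.91% ± 0.659 in the nZVI-headed ones (SD, n = 3). At 4 h these 4 held 15.6% ± 0.363, 14.2% ± 0.828 and 13.4% ± 0.817 (SD, n = 3 each). Every 4 h library was above every 1 h library in this share, and at each hour every neg-headed library was above every nFe3O4 and nZVI-headed library.

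**Figure D1:**
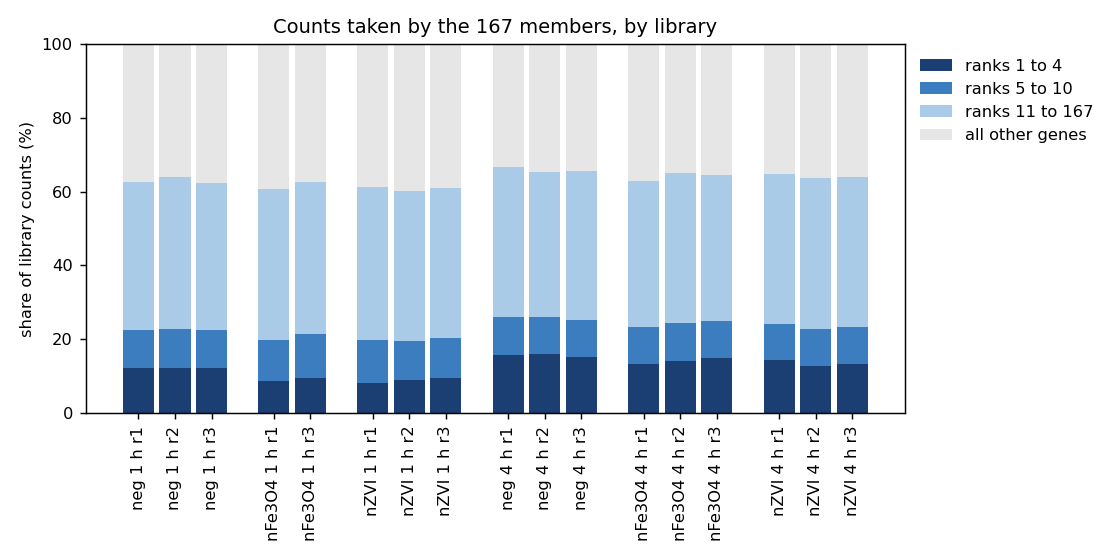
Share of each library's counts (y axis, %) taken by members of rank 1 to 4, 5 to 10 and 11 to 167, and by all other genes, for the 17 libraries (x axis; r is the replicate number). The darkest block runs from 8.28% to 15.9% and is taller at 4 h, while the lightest blue block stays between 39.5% and 41.6%.

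Levels fell off steeply down the ranking. Of the 167 members, 7 were at 20000 CPM or more, 7 between 10000 and 20000, 8 between 5000 and 10000, 63 between 2000 and 5000 and 82 between 1000 and 2000 CPM. These are counts and not counts per length, so the order is not an order of transcript number. Just inside the limit stood RSUB_12843 at 1021 CPM, RSUB_03616 at 1014 and RSUB_09740 at 1013, and just outside it RSUB_03233 at 956, RSUB_11527 at 939 and RSUB_09494 at 937 CPM. In 146 members each group mean was at or above the limit, in 7 members 5 group means were, in 10 members 4, and in 4 members 3.

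The members varied less than the genes tested as a whole, and the part of their higher counts in this was not tested. Their highest group mean was a median of 1.23 times their lowest, against 1.72 over all genes tested, and their within-group SD of log2 CPM had a median of 0.106 against 0.201. The highest group mean was under 1.2 times the lowest in 67 members and over 2 times in 30. In 70 members the within-group SD was below 0.1 and in 5 it was above 0.2. The least variable across groups was RSUB_01679, whose highest group mean was 1.03 times its lowest and whose libraries ran from 2947 to 3359 CPM. RSUB_09740, RSUB_06059, RSUB_06459 and RSUB_02800 were the next 4 in this order.

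Among the members, 81 were called in none of 9 comparisons between pairs of groups, where called means an adjusted p below 0.05 (quasi-likelihood test of edgeR, Benjamini-Hochberg adjustment over 11841 genes). This is 48.5% of the members, beside 38.6% of all genes tested. In 60 members (35.9%, beside 5.54%) the log2 fold change stayed within 0.2 either way in all 6 comparisons between particle conditions. RSUB_01419, RSUB_11201, RSUB_12683 and RSUB_05724, at ranks 5, 6, 7 and 10 with mean levels of 22925, 20915, 20043 and 13119 CPM, were among those called in none. RSUB_01419 stood at 21849, 24501 and 21728 CPM in the neg-headed libraries at 1 h, at 23960 and 24434 with nFe3O4, and at 25816, 23745 and 25689 in the nZVI-headed ones. Its 4 h levels were 24568, 21393 and 22510 CPM in the neg-headed libraries, 19790, 22718 and 20567 with nFe3O4, and 22375, 20864 and 21943 in the nZVI-headed ones. Its groups overlapped within each hour. Between the hours its nFe3O4 and nZVI-headed libraries did not overlap and were lower at 4 h. The log2 fold changes were -0.20 and -0.21 (edgeR adjusted p = 0.103 and 0.0501). They were called without nFe3O4 4 h replicate 2 (-0.26) and without nZVI-headed 1 h replicate 2 (-0.25), respectively. The authors' deposited tables of nZVI against control give RSUB_01419 a far lower level and log2 fold changes of -1.50 at 1 h and -1.58 at 4 h. Its steady level therefore holds for the count table only.

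The 2 members with the most counts, RSUB_08944 and RSUB_08942, had locus numbers 2 apart and nearly the same values in every library. RSUB_08944 stood at 36488, 37283 and 35314 CPM in the neg-headed libraries at 1 h, at 23490 and 27171 with nFe3O4, and at 22072, 22863 and 26074 in the nZVI-headed ones. At 4 h it stood at 52935, 50339 and 48545 CPM in the neg-headed libraries, at 38508, 46636 and 44568 with nFe3O4, and at 44096, 38102 and 41262 in the nZVI-headed ones. The neg-headed libraries were the highest at each hour with no overlap, and every 4 h library was above every 1 h library. At 4 h RSUB_08944 was not called with nFe3O4 (log2 fold change -0.23, edgeR adjusted p = 0.0619), though it was without nFe3O4 4 h replicate 2 (-0.28). It was called nZVI-headed at 4 h (-0.30, edgeR adjusted p = 0.0202), a call lost without any 1 of 4 libraries. RSUB_08942 was at 0.968 to 0.981 times RSUB_08944 in all 17 libraries, with an SD of the log2 ratio of 0.00584, the lowest of all 13861 pairs of members (median 0.207). The locus numbered between them, RSUB_08943, was at 15.0 CPM.

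The next members in rank, RSUB_11265 and RSUB_11267, also differed by 2 in number. RSUB_11265 was at 1.16 to 1.21 times RSUB_11267 in every library (SD of the log2 ratio 0.0169), and RSUB_11266 between them was at 385 CPM. RSUB_11265 stood at 28439, 28470 and 29090 CPM in the neg-headed libraries at 1 h, at 17563 and 18630 with nFe3O4, and at 17916, 18356 and 23243 in the nZVI-headed ones. At 4 h the values were 39811, 40181 and 36034 CPM neg-headed, 27980, 33066 and 31607 with nFe3O4, and 31499, 27579 and 29257 nZVI-headed. Again the neg-headed libraries were the highest at each hour, with no overlap. At 4 h RSUB_11265 was called with nFe3O4 (log2 fold change -0.32, edgeR adjusted p = 0.0183) and nZVI-headed (-0.39, edgeR adjusted p = 0.00677). The nFe3O4 call was lost without any 1 of 3 libraries.

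**Figure D2:**
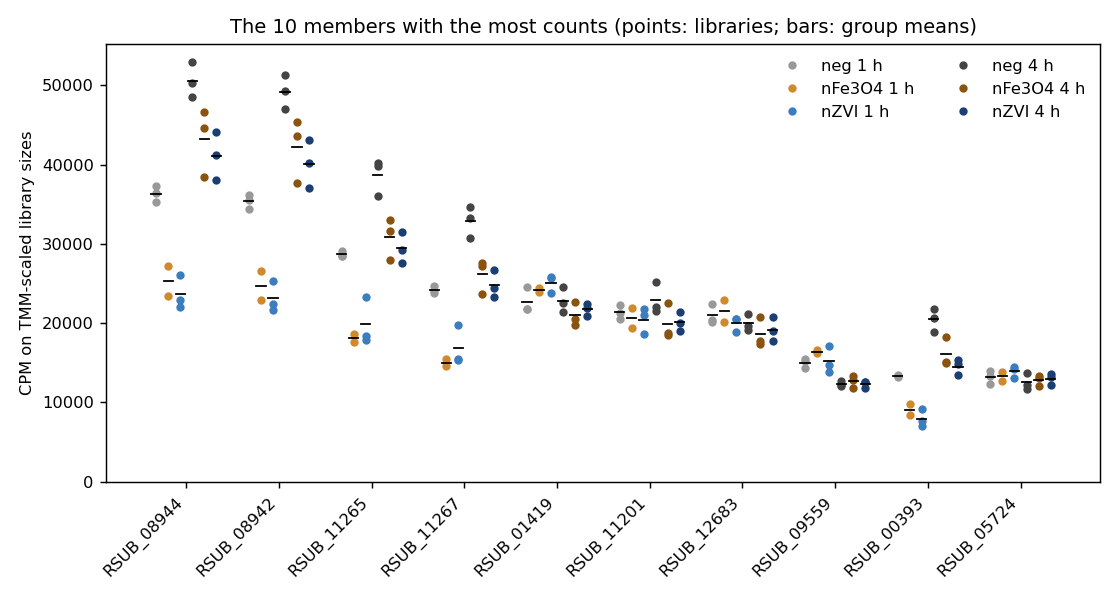
CPM (y axis, linear) of the 10 members with the highest mean level (x axis) in each of the 17 libraries, coloured by group, with a bar at each group mean. RSUB_08944, RSUB_08942, RSUB_11265, RSUB_11267 and RSUB_00393 are highest in the neg-headed 4 h libraries and lowest in the 1 h libraries headed nFe3O4 or nZVI. RSUB_01419, RSUB_11201, RSUB_12683 and RSUB_05724 stay at about the same level in the count table.

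There were 11 pairs of members whose locus numbers differed by 1 or 2. Of these, 1 pair stayed within 1.1-fold in every library, 2 within 1.2-fold and 5 within 1.5-fold. Among 21577 such pairs over all genes tested, 2 (0.00927%), 5 (0.0232%) and 186 (0.862%) did, so RSUB_08942 and RSUB_08944 are 1 of the 2 pairs at the narrowest width. This background holds genes of any count level, and the part of the members' higher counts in the contrast was not tested. RSUB_03200 was at 0.874 to 0.931 times RSUB_03202 in all libraries, with RSUB_03201 between them at 7.52 CPM. RSUB_10209 was at 0.865 to 1.31 times RSUB_10211, and RSUB_04978 at 0.790 to 1.01 times RSUB_04979. The widest neighbour pair was RSUB_06285 and RSUB_06286, with a ratio of 1.42 to 4.12.

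Near-equal values also occurred between loci far apart in number. RSUB_05724 was at 0.988 to 1.02 times RSUB_13075, a locus whose number differs by 7351 and whose mean level was 13097 CPM. In all, 11 of the 13861 member pairs stayed within 1.1-fold in every library, and 3 pairs had an SD of the log2 ratio under 0.02. The sources used here give neither build nor annotation nor how shared reads were counted, so near-identical gene copies that share reads cannot be told apart from separate genes of the same level. Values of such pairs are therefore uncertain, and they may not be independent of each other.

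**Figure D3:**
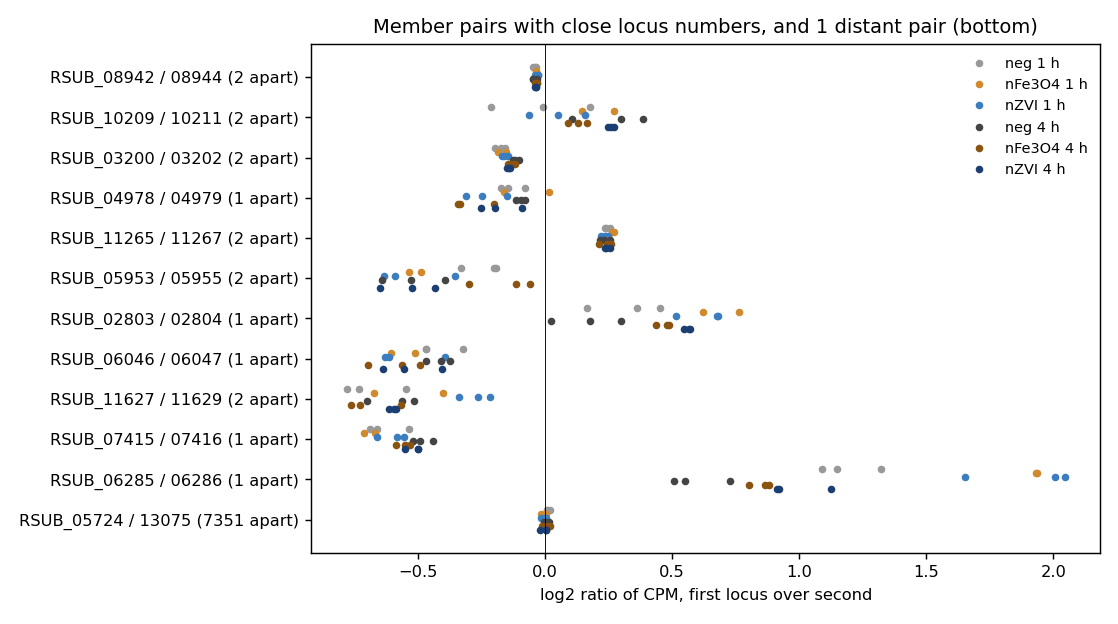
Log2 ratio of CPM (x axis) between the members of the 11 pairs with locus numbers 1 or 2 apart, and of RSUB_05724 over RSUB_13075 (bottom), 1 point a library, coloured by group. The points of RSUB_08942 over RSUB_08944, RSUB_11265 over RSUB_11267 and the bottom pair fall almost on one another, and those of RSUB_06285 over RSUB_06286 spread the most.

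At 1 h about 1 in 4 members were lower in the nFe3O4 and nZVI-headed libraries than in the neg-headed ones, and few were higher. With nFe3O4, 40 members were lower and 0 higher, which is 24% and 0% of the members, beside 13.6% lower and 15.3% higher over all genes tested. In the nZVI-headed libraries 43 members were lower (25.7%) and 3 higher (1.8%), beside backgrounds of 20.2% and 21.2%. The median log2 fold change of the members was -0.11 with nFe3O4 and -0.06 nZVI-headed, against 0.02 and 0.03 over all genes tested. Both comparisons share the neg-headed libraries. Of the lower members, 11 with nFe3O4 and 8 nZVI-headed had a mean below 1000 CPM in a compared group, so they met the limit through the groups where they were high, and their calls are no support for a general fall. Without members below 1000 CPM in a compared group, 29 lower and 0 higher of 150 were left with nFe3O4, and 35 lower and 3 higher of 158 nZVI-headed. Leaving out each library in turn gave 29 to 38 and 41 to 47 called members.

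RSUB_05089 and RSUB_04768 had the lowest 1 h levels relative to the neg-headed group among called members. Both were below 1000 CPM in the nFe3O4 and nZVI-headed libraries at 1 h and are members only through their other groups, so their falls describe these loci and not the list. RSUB_05089 stood at 1735, 1662 and 2092 CPM in the neg-headed libraries, at 683 and 643 with nFe3O4, and at 553, 513 and 712 in the nZVI-headed ones, with no overlap. The log2 fold change was -1.46 (SE 0.16, adjusted p = 9.89e-06) with nFe3O4 and -1.63 (SE 0.14, adjusted p = 4.58e-07) nZVI-headed. RSUB_04768 stood at 1620, 1612 and 1576 CPM neg-headed, at 704 and 755 with nFe3O4, and at 659, 794 and 902 nZVI-headed, again with no overlap. Its log2 fold changes were -1.14 (SE 0.14, adjusted p = 3.14e-05) and -1.03 (SE 0.12, adjusted p = 9.00e-06). A change of 2-fold or more was found in 4 called members of 167 with nFe3O4, all lower, and in 3 in the nZVI-headed libraries. Of these 3, RSUB_05089 and RSUB_04768 were lower and RSUB_11204 was higher (log2 fold change 1.65). Over all genes tested, 9.85% and 15.2% were called with such a change in either direction.

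The most abundant members took part with smaller changes. At 1 h RSUB_08944 fell by 0.52 on the log2 scale with nFe3O4 (SE 0.09, adjusted p = 0.000642) and was 0.62 lower in the nZVI-headed libraries (log2 fold change -0.62, SE 0.08, adjusted p = 2.67e-05). RSUB_11265 changed by -0.66 (SE 0.10, adjusted p = 0.000188) and -0.53 (SE 0.09, adjusted p = 0.000231). RSUB_00393, at rank 9, stood at 13472, 13335 and 13215 CPM neg-headed, 8380 and 9737 with nFe3O4, and 7612, 6970 and 9155 nZVI-headed. Its log2 fold changes were -0.56 (SE 0.12, adjusted p = 0.0017) and -0.75 (SE 0.10, adjusted p = 2.67e-05), with no overlap.

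Of the 3 members higher in the nZVI-headed libraries at 1 h, RSUB_04629 and RSUB_11204 had the largest changes. RSUB_04629 stood at 3209, 3801 and 3379 CPM there and at 2604, 2476 and 2359 CPM in the neg-headed libraries, or 0.48 higher on the log2 scale (SE 0.10, adjusted p = 0.00108). RSUB_11204 stood at 1974, 2551 and 5296 CPM against 1191, 877 and 1055 CPM, which is 1.65 on the log2 scale (SE 0.60, adjusted p = 0.0375). RSUB_11204 had the largest within-group SD of all members, 0.906 on the log2 scale, and its nFe3O4 libraries ran from 593 to 2837 CPM at 1 h and from 493 to 3439 CPM at 4 h. Its call was lost without any 1 of the neg-headed 1 h libraries (log2 fold change 1.76, 1.53 and 1.66 without replicates 1, 2 and 3) and without nZVI-headed 1 h replicate 3 (1.12).

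At 4 h the called members were again mostly lower than in the neg-headed libraries. With nFe3O4, 42 members were lower (25.1%) and 4 higher (2.4%) than in the neg-headed libraries, beside 10.6% and 12.3% over all genes tested. In the nZVI-headed libraries 29 were lower (17.4%) and 5 higher (2.99%), beside 9.39% and 10.5%. No called member changed 2-fold or more in either comparison, beside 4.32% with nFe3O4 and 4.1% nZVI-headed of all genes tested. Of the lower members 1, in the nZVI-headed comparison, was below 1000 CPM in a compared group. The median log2 fold change of the members was -0.16 and -0.06, against 0.02 and 0.02 over all genes tested.

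These 4 h counts moved more than those at 1 h when single libraries were left out. The nFe3O4 count of 46 called members became 19, 88 and 22 without nFe3O4 4 h replicates 1, 2 and 3, and 16, 23 and 23 without neg-headed 4 h replicates 1, 2 and 3. It became 27 when the groups compared were fitted alone. The nZVI-headed count of 34 became 22 without neg-headed 4 h replicate 1 or 2, 20 without nZVI-headed 4 h replicate 2, and 21 without its replicate 3.

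RSUB_00682 had the largest fall among called members in the nZVI-headed libraries at 4 h. It stood at 6171, 6622 and 5648 CPM neg-headed, 3860, 4811 and 3994 with nFe3O4, and 4108, 3372 and 3708 nZVI-headed, with the neg-headed libraries above all others. The log2 fold change was -0.72 (SE 0.11, adjusted p = 0.000446) nZVI-headed and -0.54 (SE 0.11, adjusted p = 0.00297) with nFe3O4. RSUB_05089 was next, at -0.70 (SE 0.14, adjusted p = 0.00237).

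With nFe3O4 at 4 h the largest falls among called members were those of RSUB_08845 and RSUB_11441. RSUB_08845 stood at 6105, 4206 and 3119 CPM with nFe3O4 against 7959, 7221 and 7112 CPM neg-headed, and fell by 0.73 on the log2 scale (SE 0.18, adjusted p = 0.0101). RSUB_11441 stood at 1091, 1369 and 1104 CPM against 1931, 1823 and 1601 CPM, and so fell by 0.59 on the log2 scale (SE 0.13, adjusted p = 0.0042). Neither pair of groups overlapped, though the nFe3O4 libraries of RSUB_08845 were far apart.

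The members higher at 4 h rose by less than 1.5-fold. RSUB_11635 stood at 3234, 3297 and 3509 CPM with nFe3O4, at 3124, 3409 and 3361 nZVI-headed and at 2498, 2578 and 2766 neg-headed, which is 0.36 (SE 0.08, adjusted p = 0.00412) and 0.34 (SE 0.08, adjusted p = 0.00613) higher on the log2 scale. RSUB_04629 was higher in the nZVI-headed libraries at 4 h too, at 3131, 2668 and 2789 against 2340, 2042 and 2011 CPM (log2 fold change 0.43, SE 0.10, adjusted p = 0.00713). RSUB_07320 was 0.34 higher on the log2 scale with nFe3O4 (SE 0.08, adjusted p = 0.0078), a call lost without neg-headed 4 h replicate 2 (0.27).

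The nZVI-headed and nFe3O4 libraries differed from each other in few members. At 1 h, 2 members were higher nZVI-headed (1.2%) and 3 lower (1.8%), beside 1.21% and 1.87% over all genes tested, so the shares are close to the background. RSUB_10240 and RSUB_06253 were the higher ones, with log2 fold changes of 0.35 (SE 0.08, adjusted p = 0.0261) and 0.38 (SE 0.10, adjusted p = 0.0487). RSUB_09326 and RSUB_07320 had the largest falls, at -0.43 (SE 0.11, adjusted p = 0.0431) and -0.41 (SE 0.09, adjusted p = 0.0245). The count of 5 became 1 and 0 without nFe3O4 1 h replicates 1 and 3, 1 and 0 without nZVI-headed 1 h replicates 2 and 3, and 0 when the groups were fitted alone. All 4 named calls were lost without nFe3O4 1 h replicate 3 (where RSUB_09326 was at -0.23) and without nZVI-headed 1 h replicate 3. Those of RSUB_06253, RSUB_10240 and RSUB_07320 were also lost without nFe3O4 1 h replicate 1, those of RSUB_06253, RSUB_09326 and RSUB_07320 without nZVI-headed 1 h replicate 2, and that of RSUB_09326 without its replicate 1.

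At 4 h, edgeR's test called 0 members between nZVI-headed and nFe3O4 libraries, beside 0% higher and 0.00845% lower over all genes tested. At an unadjusted p below 0.05 there were 15 members and 835 genes, and DESeq2 also called 0 members. A comparison that calls none does not show that the groups were alike: the members' log2 fold changes ran from -0.46 to 0.27.

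**Figure D4:**
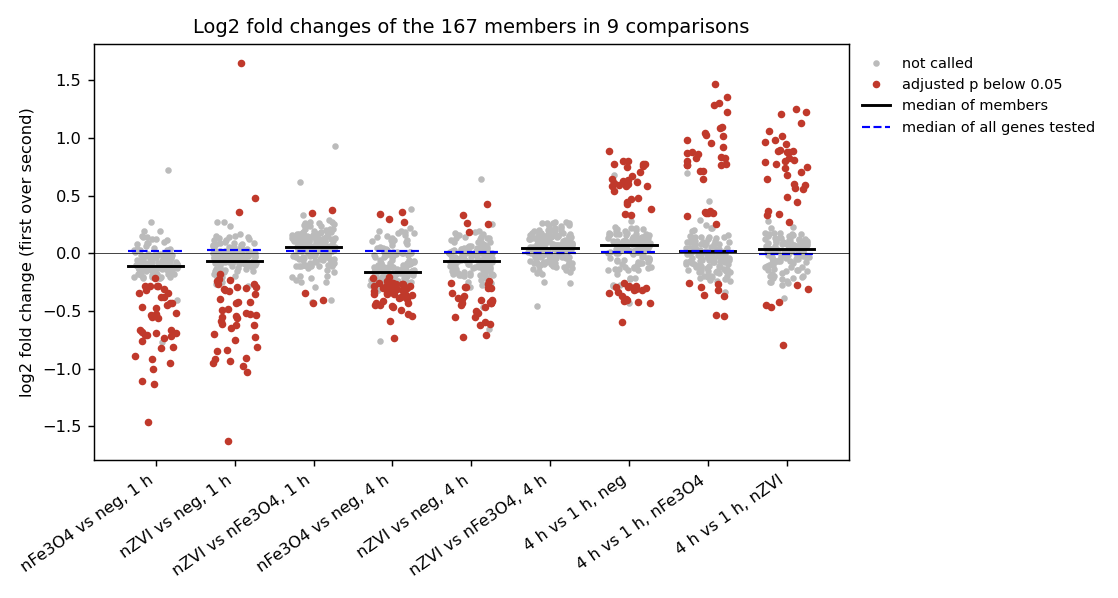
Log2 fold change (y axis, first named group over second) of the 167 members in 9 comparisons (x axis), 1 point a member, red where the adjusted p is below 0.05, with the median of the members (solid) and of all genes tested (dashed). Red points lie almost all below 0 in the 4 comparisons with the neg-headed libraries and mostly above 0 in the 3 comparisons of 4 h with 1 h.

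Between the hours, the called members were mostly higher at 4 h. In the neg-headed libraries 28 members were higher at 4 h (16.8%) and 18 lower (10.8%), beside 8.52% and 8.61% over all genes tested. With nFe3O4, 34 were higher (20.4%) and 8 lower (4.79%), beside 5.33% and 7.19%. In the nZVI-headed libraries 34 were higher (20.4%) and 6 lower (3.59%), beside 8.28% and 9.54%. The median log2 fold change of the members was 0.07, 0.02 and 0.04, against 0.01, 0.02 and -0.01 over all genes tested, so the medians lay near 0 in each. With nFe3O4 the count of 42 became 27 when the groups were fitted alone.

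These 3 comparisons share no library. In all of them 26 members were higher at 4 h, which is 92.9% of the 28, 76.5% of the 34 with nFe3O4 and 76.5% of the 34 nZVI-headed. These are 15.6% of the members, beside 1.21% of all genes tested. There were 3 members lower in all of them (1.8%), beside 2.5% of all genes tested. A further 109 were called in none (65.3%, beside 68.3% of all genes tested) and 0 in opposite directions (beside 0.777%). Of the members higher at 4 h, 9 with nFe3O4 and 8 nZVI-headed were below 1000 CPM in a compared group. They met the limit through the groups where they were high, and their calls are no support for a general rise. Such members are also among those higher in all 3 conditions, for example RSUB_11015, RSUB_04768, RSUB_07474 and RSUB_11441. The share of 15.6% was not taken again without them. Without members below 1000 CPM in a compared group, 25 higher and 7 lower of 148 were left with nFe3O4. For the nZVI-headed libraries 26 higher and 5 lower of 155 were left. The 26 include 5 of the first 10 members and run from RSUB_11015 at a mean of 1103 CPM to RSUB_08944. Together the 26 held 19.5% ± 0.112 of the counts in the neg-headed libraries at 1 h (SD, n = 3), 14.9% ± 1.15 with nFe3O4 (SD, n = 2) and 14.4% ± 0.916 nZVI-headed (SD, n = 3). At 4 h they held 25.8% ± 0.486, 23.2% ± 0.927 and 22.0% ± 1.30 (SD, n = 3 each). The other members together held 42.8% to 47.9% of a library's counts at 1 h and 39.1% to 42.9% at 4 h. The hour differences chose these 26, so the shares by hour of both parts are a description.

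RSUB_11015 had the largest ratio between group means of all members, 3.98. Its means were below 1000 CPM in the nFe3O4 and nZVI-headed libraries at 1 h, so it met the limit through its other groups. Its rises there describe this locus and not the list. RSUB_11015 stood at 1049, 1038 and 1050 CPM neg-headed, 468 and 506 with nFe3O4, and 453, 461 and 705 nZVI-headed at 1 h. At 4 h it stood at 2054, 1916 and 1836 CPM neg-headed, 1191, 1549 and 1305 with nFe3O4, and 1313, 1150 and 1320 nZVI-headed. Each 4 h group was above its 1 h group with no overlap, and the neg-headed libraries were the highest at each hour. The log2 fold change from 1 h to 4 h was 0.89 (SE 0.14, adjusted p = 0.000636) neg-headed, 1.47 (SE 0.16, adjusted p = 3.67e-05) with nFe3O4 and 1.22 (SE 0.14, adjusted p = 2.48e-05) nZVI-headed.

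RSUB_07474 and RSUB_00682 also had large rises between the hours, and RSUB_07474 had the largest of all members in the nZVI-headed libraries. RSUB_07474 rose by 1.35 on the log2 scale with nFe3O4 (SE 0.12, adjusted p = 9.96e-06), from 1027 and 968 CPM to 2404, 2826 and 2410 CPM. In the nZVI-headed libraries it rose by 1.26 (SE 0.11, adjusted p = 1.78e-06), from 877, 886 and 1181 CPM to 2471, 2157 and 2400 CPM. Its 1 h means were just below the limit, at 997 CPM with nFe3O4 and 982 nZVI-headed, so these rises too describe the locus and not the list. RSUB_00682 rose by 0.80 in the neg-headed libraries (SE 0.11, adjusted p = 0.000287), from 3465, 3501 and 3592 to 6171, 6622 and 5648 CPM. No 1 h library of these comparisons reached a 4 h one. The first member, RSUB_08944, rose by 0.48 (SE 0.08, adjusted p = 0.00132) neg-headed, 0.77 (SE 0.10, adjusted p = 8.66e-05) with nFe3O4 and 0.80 (SE 0.08, adjusted p = 1.17e-05) nZVI-headed.

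**Figure D5:**
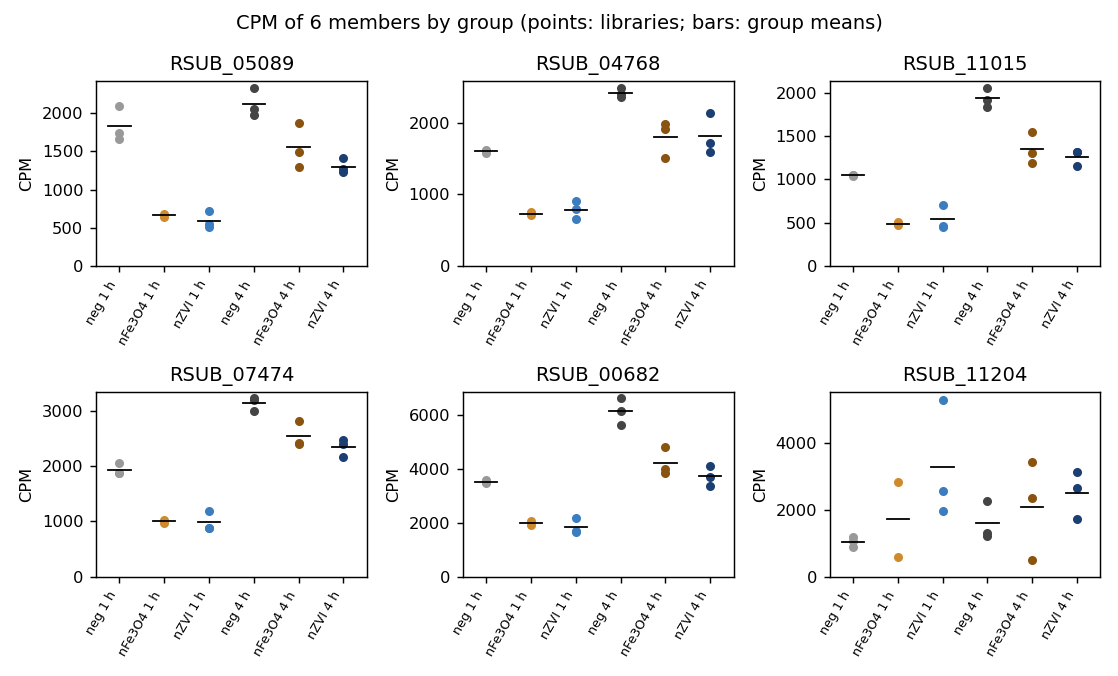
CPM (y axes, linear, from 0) by group (x axes) of the 5 members with the largest ratio between group means and of RSUB_11204, the member with the largest within-group spread, 1 point a library with a bar at each group mean. The first 5 share a low level in the nFe3O4 and nZVI-headed libraries at 1 h, while the points of RSUB_11204 overlap between most groups.

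Fewer members were lower at 4 h. RSUB_09559, at rank 8, was 1 of the 3 lower in all conditions. It stood at 14316, 15480 and 15243 CPM neg-headed, 16655 and 16180 with nFe3O4, and 17122, 13827 and 14725 nZVI-headed at 1 h, and between 11796 and 13357 CPM in all 4 h libraries. Its log2 fold changes were -0.28 (SE 0.07, adjusted p = 0.0141), -0.37 (SE 0.08, adjusted p = 0.0057) and -0.31 (SE 0.07, adjusted p = 0.00724). The neg-headed call was lost without any 1 of neg-headed 1 h replicates 2 and 3 and 4 h replicates 1, 2 and 3, and the nZVI-headed one without its 4 h replicate 3. The nFe3O4 call was lost when the groups were fitted alone (-0.38, adjusted p = 0.0858 by the same edgeR test).

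The members with the largest falls were lower by 0.80 or less on the log2 scale. In the neg-headed libraries RSUB_09307 fell by 0.60 on the log2 scale (SE 0.12, adjusted p = 0.00305), from 4012, 3832 and 3864 to 2638, 2517 and 2577 CPM, and RSUB_06253 by 0.43 (SE 0.09, adjusted p = 0.00358). In the nZVI-headed libraries RSUB_12130 fell by 0.80 (SE 0.15, adjusted p = 0.00163), from 1549, 1404 and 1776 to 770, 928 and 1025 CPM, and RSUB_03774 by 0.47 (SE 0.07, adjusted p = 0.000309). RSUB_12130 averaged below 1000 CPM in each 4 h group and met the limit through its 1 h groups, so its falls describe this locus only. With nFe3O4, RSUB_06500 fell by 0.54 (SE 0.11, adjusted p = 0.00452), a call lost without nFe3O4 1 h replicate 3 (-0.49). RSUB_12130 fell by 0.54 there (SE 0.16, adjusted p = 0.0421), a call lost without any 1 of nFe3O4 1 h replicates 1 and 3 and 4 h replicates 1 and 3 (-0.41 to -0.60).

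Whether the difference from the neg-headed libraries changed between 1 h and 4 h was tested as an interaction. For nFe3O4, 5 members had a higher (less negative or more positive) difference at 4 h and 0 a lower one, which is 2.99% and 0%, beside 1.19% and 0.777% over all genes tested. For the nZVI-headed libraries the counts were 11 and 1, or 6.59% and 0.599%, beside 4.59% and 4.69%. Of the called members, 2 for nFe3O4 and 3 nZVI-headed had a mean below 1000 CPM in a group. They met the limit through the groups where they were high, so these calls describe the loci and not the list. RSUB_05089, which is among them, had the largest interaction of the called members, 1.01 (SE 0.21, adjusted p = 0.0194) for nFe3O4 and 0.92 (SE 0.19, adjusted p = 0.00942) nZVI-headed. Its 4 h libraries stood at 1974, 2331 and 2060 CPM neg-headed, 1301, 1869 and 1492 with nFe3O4 and 1409, 1224 and 1271 nZVI-headed, so the gap to the neg-headed group was narrower than at 1 h. The nFe3O4 call was lost without nFe3O4 1 h replicate 3 (0.97), neg-headed 1 h replicate 3 (0.91) or neg-headed 4 h replicate 1 (0.97).

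The interaction counts were small and moved with single libraries. The nFe3O4 count of 5 became 3 and 0 without nFe3O4 1 h replicates 1 and 3, and 8, 3 and 3 without its 4 h replicates 1, 2 and 3. It became 3, 3 and 2 without neg-headed 1 h replicates 1, 2 and 3, and 1, 3 and 2 without neg-headed 4 h replicates 1, 2 and 3. The nZVI-headed count of 12 became 6 without neg-headed 1 h replicate 2, neg-headed 4 h replicate 1, nZVI-headed 1 h replicate 2 or nZVI-headed 4 h replicate 1, and 7 without neg-headed 1 h replicate 3 or 4 h replicate 2.

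RSUB_11781 was the 1 member with a lower nZVI-headed difference at 4 h, an interaction of -0.66 (SE 0.16, adjusted p = 0.019). At 1 h it stood at 2027, 1512 and 2063 CPM nZVI-headed and at 1573, 1430 and 1623 neg-headed, which overlap, and at 4 h at 1317, 1525 and 1268 against 1904, 1840 and 1614 CPM, which do not. The call was lost without neg-headed 1 h replicate 2 (-0.59), neg-headed 4 h replicate 1 (-0.59) or nZVI-headed 4 h replicate 1 (-0.63).

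The authors' deposited tables of comparisons of nZVI against control give the opposite direction for nearly all members they list. For nZVI and control at 1 h, 93 members are in the authors' deposited table, 82 higher and 11 lower, and 92 of them have the opposite sign to the count table, including all 46 called here. In the authors' deposited table for 4 h, 95 members are listed, 76 higher and 19 lower, with 94 opposite in sign, including all 34 called here. For RSUB_05089 the authors' deposited tables give a log2 fold change of 1.67 at 1 h and 0.74 at 4 h, where the count table gave -1.63 and -0.70. In the authors' deposited table of 4 h against 1 h, 111 members are listed, 79 higher and 32 lower. The shares higher and lower over all genes listed in these tables were not taken. The counts of higher and lower members are therefore no trait of the list.

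The level of 1 member differs between the deposited tables far beyond this. The mean normalized count in the authors' deposited tables was a median of 0.479 times the mean lane count over 152 listed members, with 146 of them between 0.4 and 0.6 times. RSUB_01419, at rank 5 with a mean lane count of 195236, has a mean of 52.88 in the authors' deposited table, a ratio of 0.000271. Its log2 fold changes there, nZVI against control, are -1.50 at 1 h and -1.58 at 4 h, where the count table gave 0.14 and -0.07. RSUB_04629 is at a ratio of 0.156 and RSUB_07846 at 0.652. The values given here for RSUB_01419 and RSUB_04629 are those of the count table, and the cause of the gap was not tested.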

How the data were processed

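Per the labels' protocols, stranded poly(A) libraries were read from both ends. HISAT2, Trimmomatic, SAMtools, bcl2fastq, DESeq, DESeq2 and bedtools 2.27.1 are listed in the submitters' processing notes, without roles. How reads were counted, and on which build and annotation, is not given in the sources used here. Whole-number read counts per gene in 72 lane columns were deposited by the authors without normalization, per the file headers. Of lane counts from 1 to 20, 63.5% were even. The authors also deposited a 50-gene table on the log2 scale (of which 49 genes were compared) and tables of their comparisons with a mean normalized count (in the other values), a log2 fold change and an adjusted p-value, of which 3 were used. Values from those tables are printed as the authors' and entered no test.

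Lanes were summed to 17 libraries of 26322767 to 43364641 counts, and CPM was taken on TMM-scaled library sizes. Groups were compared in R 4.3.3 with edgeR 4.0.16 and limma 3.58.1: quasi-likelihood test, low-count filter by group (340 genes removed), one model of 6 group means, Benjamini-Hochberg adjustment over 11841 genes, called at an adjusted p below 0.05. The common coefficient of variation was 0.19. The standard error was taken from the test statistic. The fit was tested on simulated data. Near-equal pairs were compared by their CPM ratio in each library.

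Alternatives for the tests were RLE size factors, scaling on non-members, DESeq2 1.42.0, no low-count filter, lane 1 alone, the compared groups alone, a replicate block and each library left out. The copied library was kept only for a recount of the members, and other limits were used only for their number and share. No call was rerun with these. The members and lists were chosen with earlier results of these data known. Named loci are the 10 members with the highest mean, per comparison up to 2 rises and 2 falls with the largest log2 fold change among calls, the 5 smallest and 5 largest ratios of group means, the 5 neighbour pairs nearest to equality and 3 loci on either side of the limit. RSUB_06285 and RSUB_06286, RSUB_13075 and RSUB_07846 lie outside this rule and were chosen after their values were seen. Lists of gene products were not used, since no products were paired with the loci.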

Additional observations from a re-analysis of the deposited data

Results flagged for a closer look

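Among the loci named in the report, 8 had a difference from the neg-headed libraries that changed between 1 h and 4 h. The test was edgeR's interaction test with Benjamini-Hochberg adjustment. RSUB_09770 and RSUB_11781 were named only because this test called them. Values are differences of log2 fold changes, 4 h minus 1 h. A positive value means a smaller deficit, a larger excess or a deficit that became an excess at 4 h. RSUB_05089 had 1.015 for nFe3O4 and 0.9212 for the nZVI-headed libraries, RSUB_07474 had 0.6475 and 0.55, and RSUB_09770 had 0.746 and 0.571, in the same order. The nFe3O4 and nZVI-headed values share the neg-headed libraries. For the nZVI-headed libraries alone, RSUB_04768 had 0.6155, RSUB_09307 had 0.5725, RSUB_07320 had 0.5484 and RSUB_11635 had 0.472. RSUB_05089, RSUB_07474 and RSUB_04768 averaged below 1000 CPM in the nFe3O4 and nZVI-headed libraries at 1 h. They met the limit through their other groups, so their values describe these loci and not the list. In RSUB_07320, RSUB_11635 and RSUB_09307 the difference from the neg-headed libraries changed sign. RSUB_07320 went from -0.29 at 1 h to 0.26 at 4 h, both called, though the 4 h call was lost without any 1 of 6 libraries. RSUB_11635 went from -0.14 to 0.34 (called at 4 h only) and RSUB_09307 from -0.43 to 0.14 (called at 1 h only). RSUB_11781 had -0.659.

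Most of these calls were lost when some single libraries were left out, while the values kept their direction. RSUB_07320 and the nZVI-headed value of RSUB_05089 kept their calls under every alternative run, and RSUB_11635 lost its call without neg-headed 4 h replicate 1 only (0.46). The nFe3O4 value of RSUB_05089 lost its call without 3 of the libraries compared, in turn (0.91 to 0.97), and RSUB_11781 without 3 (-0.63 to -0.59). The calls of RSUB_07474 were lost without any 1 of 10 libraries for nFe3O4 (0.57 to 0.69) and of 6 nZVI-headed (0.48 to 0.59), and those of RSUB_09770 without any 1 of 9 in each (0.66 to 0.77 and 0.39 to 0.60). RSUB_04768 lost its call without any 1 of 9 (0.48 to 0.65) and RSUB_09307 without any 1 of 11 (0.51 to 0.61). The replicate block also ended the nZVI-headed calls of RSUB_04768, RSUB_09307 and RSUB_09770 (edgeR adjusted p = 0.0563, 0.0532 and 0.0598). The nFe3O4 calls of RSUB_07474 and RSUB_09770 ended too (edgeR adjusted p = 0.0758 and 0.0635). Same-numbered libraries did not go together throughout, though across the hours those with nFe3O4 did (r of 0.52 and 0.72).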

How the results depend on the processing

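Over 210 values of named loci and 2844 alternatives, 2596 kept direction and call, 240 lost the call, 8 gained one and none reversed. The count of members called between nZVI-headed and nFe3O4 libraries at 1 h, 5 as reported, was 3 with RLE size factors, 3 with scaling on non-members, 0 from lane 1 alone, 0 with the groups compared fitted alone and 1 with the replicate block. With the groups fitted alone, nFe3O4 against neg-headed at 4 h gave 27 in place of 46 and 4 h against 1 h with nFe3O4 gave 27 in place of 42; the causes were not tested. With the replicate block, the nFe3O4 interaction gave 3 in place of 5, and every other count stayed within 1.5 times. Replicate numbers did not pair the libraries throughout: same-numbered deviations correlated at -0.58 to 0.72, and 7 of 17 libraries correlated best with their own number. Across the hours the correlations were 0.52 and 0.72 with nFe3O4, -0.04 to 0.54 nZVI-headed and 0.01 to 0.15 neg-headed. Whether the numbers pair cultures across the hours was not tested. Leaving out each library gave 29 to 38 members for nFe3O4 and 41 to 47 nZVI-headed against neg-headed at 1 h, 16 to 88 and 20 to 33 at 4 h, 0 to 4 and 0 to 0 between nZVI-headed and nFe3O4, 31 to 43, 31 to 49 and 38 to 42 for 4 h against 1 h (neg-headed, nFe3O4, nZVI-headed), and 0 to 8 and 6 to 15 for the interactions. Where this left 1 nFe3O4 library at 1 h, it is assumed to vary like the other groups. A limit of 500 CPM gave 262 members with 69.7% of counts, and 2000 CPM gave 85 with 51.5%. Scaling choices moved the median of all genes by under 0.1 (log2).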

Other observations

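The 3 tables of the authors' comparisons used here list 273 loci numbered below 360, the lowest number in the count table. By the mean normalized count in the authors' deposited tables, 6 of them are at or above the median of the listed members (8159), and the highest is at 103253, with 3 listed members above it. These loci were not analysed here and are not among the members.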
